A study of Mus musculus with 8 samples.

Results

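Toll-like receptors are membrane proteins with which cells sense molecules of bacteria, fungi and viruses. The 10 genes described here were 4 receptors of the cell surface (Tlr1, Tlr2, Tlr4 and Tlr6), 3 receptors of endosomes (Tlr3, Tlr7 and Tlr9), the co-receptors Cd14 and Ly96 and the adaptor Myd88. They were found by symbol among the 37991 gene identifiers of a deposited count table, and all 10 had a row. RNA was measured in Flt3- LSK cells, a bone marrow fraction of lineage-negative cells that carry Sca-1 and Kit and include haematopoietic stem cells, from C57BL/6J mice. The WT group carried the floxed Runx1 alleles (Runx1f/f) and the other group was labelled Mut and Runx1 deficient. Each group had 2 sorted samples of 24000 cells, and each sample was read, by its name, as measured in an mRNA library of polyA-selected RNA and in a total RNA library, so that 8 libraries were compared. ERCC spike-in RNA had been added to all of them. The sources used here do not give the Cre driver, the deleted part of Runx1, the age of the mice or whether a sample came from 1 or from pooled animals. P-values therefore measure only how far these samples scatter, which may be technical scatter.

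The mRNA libraries held 35096252 to 37924699 gene counts each and the total RNA libraries 967694 to 1218437, with ribosomal RNA at 93.3 to 94.5% of all counts in the latter. Runx1, the targeted gene, stood at 200 and 208 CPM (gene counts scaled to library size, with TMM factors) in the WT and at 749 and 941 CPM in the Mut mRNA libraries. This direction goes against the label, and a count over a whole gene does not check the deletion of a part of it, so the groups are called WT and Mut-labelled and every direction rests on the labels. Kit was at 884 to 1100 CPM and Ly6a, which encodes Sca-1, at 23.7 to 38.6 CPM in the mRNA libraries. Of the 8 genes listed for the sorted fraction, 1 was called higher and 1 lower there. Cd48, carried by multipotent progenitors more than by stem cells, stood at 47.6 and 42.6 CPM in WT against 181 and 179 CPM (edgeR adjusted p = 0.00451). Procr, a stem cell marker, stood at 21.7 and 26.3 CPM against 4.06 and 6.89 CPM (edgeR adjusted p = 0.0309). Flt3, whose protein the gate excludes, was still counted, at 117 and 155 CPM in WT against 57.3 and 87.6 CPM in Mut-labelled libraries.

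Each receptor binds its ligands as a dimer and passes the signal on through a TIR domain inside the cell. Tlr2 pairs with Tlr1 for triacylated bacterial lipopeptides and with Tlr6 for diacylated ones. Tlr4 senses lipopolysaccharide together with MD-2, the product of Ly96, after Cd14 has handed the lipid over. Tlr3 binds double-stranded RNA, Tlr7 single-stranded RNA and Tlr9 unmethylated CpG DNA, all inside endosomes. Myd88 connects every one of these receptors except Tlr3, and also the receptors of the IL-1 family, to the IRAK kinases and on to NF-kB. Haematopoietic stem and progenitor cells are known to carry functional Toll-like receptors, and their stimulation favours the production of myeloid cells.

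Tlr6 was the 1 member called between the groups, and its sequences are shown first. Tlr6 and Tlr1 lie next to each other on chromosome 5, both on the minus strand, and their coding sequences hold long identical stretches that matter for how reads of each can be counted. In GENCODE M21 (GRCm38) the longest identical run was 229 bases, at coding positions 1507 to 1735 of Tlr6 (chr5:64953828-64954056, coding exon) and 1468 to 1696 of Tlr1 (chr5:64925537-64925765, coding exon). Of the 50-base words of the Tlr6 coding sequence, 454 of 2372 (19.1%) also occurred in Tlr1, and these were 19.4% of the 2339 words of Tlr1, while 0 were shared by either gene with Tlr2. The run is printed below in capitals, 5′ to 3′ on the coding strand, with 20 bases of each gene on either side in lower case.
Tlr6: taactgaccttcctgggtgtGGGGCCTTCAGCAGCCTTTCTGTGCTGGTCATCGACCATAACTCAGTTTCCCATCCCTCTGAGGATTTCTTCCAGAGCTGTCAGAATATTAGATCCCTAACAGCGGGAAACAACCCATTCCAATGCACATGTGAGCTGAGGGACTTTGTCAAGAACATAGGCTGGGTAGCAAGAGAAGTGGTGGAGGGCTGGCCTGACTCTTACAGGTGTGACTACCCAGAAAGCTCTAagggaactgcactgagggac
Tlr1: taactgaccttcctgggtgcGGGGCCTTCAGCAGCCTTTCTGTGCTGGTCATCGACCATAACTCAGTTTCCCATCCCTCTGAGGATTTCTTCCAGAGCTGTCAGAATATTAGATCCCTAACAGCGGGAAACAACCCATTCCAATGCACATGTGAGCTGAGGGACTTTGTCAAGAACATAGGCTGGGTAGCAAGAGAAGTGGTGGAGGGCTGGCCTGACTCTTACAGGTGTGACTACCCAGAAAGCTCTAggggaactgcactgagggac
How the authors counted reads that map to both genes is not given in the sources used here, so the split of counts between Tlr1 and Tlr6 is uncertain.

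Windows around the starts given for Tlr6 are shown because Runx1, the gene altered in this series, encodes a factor that binds a short core motif. RefSeq windows of 300 bases, from 250 before to 50 after a gene start (GRCm38.p6), were at hand for 6 of the 10 members, 8 windows in all, with 2 windows for Tlr6. They were searched on both strands for TGTGGT and TGCGGT, the letters of the RUNX core, which do not overlap each other. Either motif occurred in 22.4% of 32851 windows of the same length in the table, TGTGGT in 16.8% and TGCGGT in 6.45%. In the 8 windows of the members the 1 match was TGTGGT on the printed strand of the second Tlr6 window, at position -132 from the start on which that window is placed. The first Tlr6 window had 0 matches. On the minus strand the second window lies downstream of the first, which reaches an exon of Tlr6, and upstream of the coding exon (chr5:64952031-64955593). By GENCODE M21 the match therefore lies inside Tlr6 and not before its first exon. The first Tlr6 window, printed without the bases that GENCODE M21 gives as exon (chr5:64960098-64960298, minus strand), and the second, which meets no exon of Tlr6 there (chr5:64959117-64959416, minus strand), read 5′ to 3′ as follows, with the match in capitals.
Tlr6 window 1: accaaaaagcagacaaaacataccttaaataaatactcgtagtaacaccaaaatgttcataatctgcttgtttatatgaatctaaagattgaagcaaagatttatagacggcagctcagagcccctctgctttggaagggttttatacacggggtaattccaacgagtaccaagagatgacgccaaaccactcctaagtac
Tlr6 window 2: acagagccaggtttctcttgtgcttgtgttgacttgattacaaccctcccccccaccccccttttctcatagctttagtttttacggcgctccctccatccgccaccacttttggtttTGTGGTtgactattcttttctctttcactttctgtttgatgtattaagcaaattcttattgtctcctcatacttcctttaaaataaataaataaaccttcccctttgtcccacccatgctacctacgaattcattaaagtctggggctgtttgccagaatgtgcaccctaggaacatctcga
A match of these letters is a description and shows no binding, and windows of Tlr4, Tlr7, Cd14 and Ly96 were not used here.

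In the mRNA libraries Tlr6 rose about 4-fold in the Mut-labelled samples, while its dimer partner Tlr2 stayed within the spread of the replicates. Of the 10 members, all tested there, 1 was called higher and 0 lower (edgeR quasi-likelihood test, two-sided, Benjamini-Hochberg adjusted p under 0.05 over all genes), with 4 at an unadjusted p below 0.05 (DESeq2 called 4 higher, and 8% of the 18741 genes it tested). Among all 17128 genes tested, 3.64% were called, 1.75% higher and 1.89% lower, and 15.7% had an unadjusted p below 0.05. Scaled by ERCC counts, 16 genes were called higher and 154 lower, in place of 300 and 324. The median log2 fold change was 0.72 over the 10 members and -0.01 over all genes. In 6 members both Mut-labelled libraries lay above both WT libraries and in 1 below, against 44.6% of all tested genes that did not overlap in either direction.

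**Figure D1:**
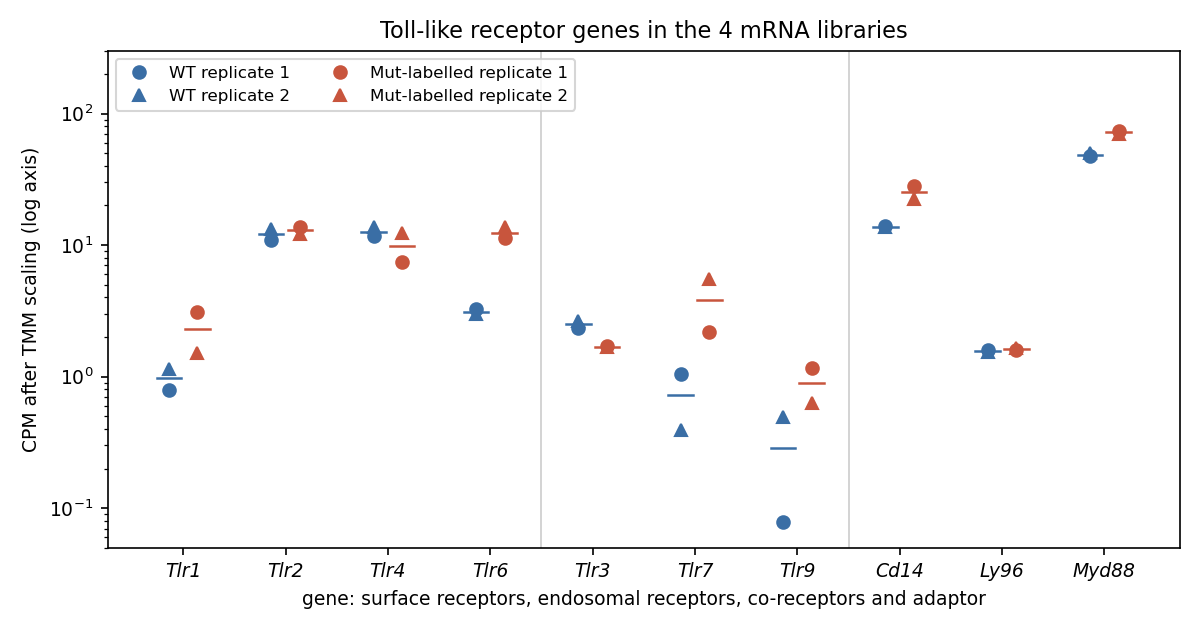
Level of each gene in each mRNA library, in CPM after TMM scaling on a log axis; circles are replicate 1, triangles replicate 2, blue WT, red Mut-labelled, and short lines are group means. Tlr6 lies at 2.98 to 3.24 CPM in WT and 11.3 to 13.7 CPM in Mut-labelled libraries, and Ly96 between 1.54 and 1.64 CPM in all 4.

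Tlr6 had 123 and 114 counts in the WT and 394 and 499 counts in the Mut-labelled mRNA libraries. Scaled to library size these were 3.24 and 2.98 CPM against 11.3 and 13.7 CPM. Both Mut-labelled libraries stood far above both WT libraries, and the replicates of a group lay close together. The log2 fold change was 2.0 (standard error 0.27, edgeR adjusted p = 0.0230), a 4.0-fold rise, and it remained called without either WT and without either Mut-labelled library. Scaled by ERCC counts the change was 1.70 (edgeR adjusted p = 0.999). Under that scaling the median of all genes moved to -0.38, and the ERCC share of gene and ERCC counts was 0.647 and 0.312% in the WT and 0.883 and 0.380% in the Mut-labelled libraries, so replicates of 1 group differed widely in it.

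Tlr1, which also pairs with Tlr2, had 30 and 44 counts in WT and 109 and 55 counts in Mut-labelled libraries. Its levels were 0.791 and 1.15 CPM against 3.12 and 1.505 CPM, with the groups apart but the Mut-labelled libraries wide. The log2 fold change of 1.25 did not pass (standard error 0.55, edgeR adjusted p = 0.370). It was 0.63 when the first Mut-labelled library was left out and 0.58 under ERCC scaling. When the counts of Tlr1 and Tlr6 were added into 1 row, a choice made after seeing the data, the sum was 4.03 and 4.13 CPM in WT against 14.4 and 15.2 CPM in Mut-labelled libraries. This sum rose by 1.85 on the log2 scale (standard error 0.24, edgeR adjusted p = 0.0211). It does not depend on how shared reads are split between the pair, but does on whether they were dropped or counted for both. The sum was fitted in the mRNA libraries alone. In the total RNA libraries Tlr6 had 2 and 2 counts in WT against 6 and 12. Tlr1 had 8 and 1 counts there against 1 and 0, the opposite direction.

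Tlr2, the shared partner, stood at 10.9 and 13.2 CPM in WT against 13.8 and 12.1 CPM in Mut-labelled libraries. The groups overlapped, with a log2 fold change of 0.10 (standard error 0.24, edgeR adjusted p = 0.918) that turned to -0.36 under ERCC scaling and to -0.032 without WT replicate 1. Tlr4, the lipopolysaccharide receptor, stood at 11.7 and 13.6 CPM in WT against 7.40 and 12.4 CPM in Mut-labelled libraries. Here too the groups overlapped, because Mut-labelled replicate 2 lay between the WT libraries, and the log2 fold change of -0.35 did not pass (standard error 0.32, edgeR adjusted p = 0.729).

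Of the co-receptors of Tlr4, Cd14, a lipid-binding protein of the cell surface that monocytes carry in high amounts, had 528 and 522 counts in WT and 979 and 824 in Mut-labelled libraries. These were 13.9 and 13.7 CPM against 28.0 and 22.5 CPM, with the groups well apart. The log2 fold change was 0.87 (SE 0.21), with an edgeR adjusted p = 0.0984 that missed the threshold, while DESeq2 called it (adjusted p = 0.00982). Ly96 hardly varied, at 1.61 and 1.54 CPM in WT against 1.60 and 1.64 CPM in Mut-labelled libraries. Its groups overlapped and its log2 fold change was 0.04 (standard error 0.42, edgeR adjusted p = 0.985), turning to -0.32 under ERCC scaling.

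Myd88, the adaptor, was the most abundant member, with 1802 and 1907 counts in WT and 2598 and 2573 in Mut-labelled libraries. Its levels were 47.5 and 49.9 CPM against 74.3 and 70.4 CPM, and the gap between the groups was several times the spread within either. The log2 fold change of 0.57 (SE 0.12) had an edgeR adjusted p = 0.0764, and DESeq2 called it (adjusted p = 0.0295). In GENCODE M21, 11.3% of the exon bases of Myd88 overlap exons of Acaa1a on the other strand, and whether strand was used in counting is not given in the sources used here.

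Among the endosomal receptors, Tlr7 had 40 and 15 counts in WT and 76 and 201 counts in Mut-labelled libraries. Its levels were 1.05 and 0.392 CPM against 2.17 and 5.50 CPM, so the groups did not overlap but the replicates of each differed widely. The log2 fold change of 2.40 (SE 0.69) had an edgeR adjusted p = 0.155, while DESeq2 called it (adjusted p = 0.0144). Single libraries moved it widely, to 3.28 without WT replicate 1, to 1.59 without Mut-labelled replicate 2, and to 2.92 without Mut-labelled replicate 1 (edgeR adjusted p = 0.0368). Tlr3, the receptor that does not use Myd88, was the 1 member with both Mut-labelled libraries below WT, at 2.35 and 2.64 CPM against 1.71 and 1.67 CPM. Its log2 fold change of -0.56 did not pass (standard error 0.38, edgeR adjusted p = 0.606), and 7.32% of its exon bases overlap the antisense gene Gm45542. Tlr9 was near the limit of counting, with 3 and 19 counts in WT and 41 and 23 in Mut-labelled libraries, and its log2 fold change of 1.63 had an SE of 1.04 (edgeR adjusted p = 0.577). It was 3.47 without WT replicate 2, 0.85 without WT replicate 1 and 0.80 under ERCC scaling.

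**Figure D2:**
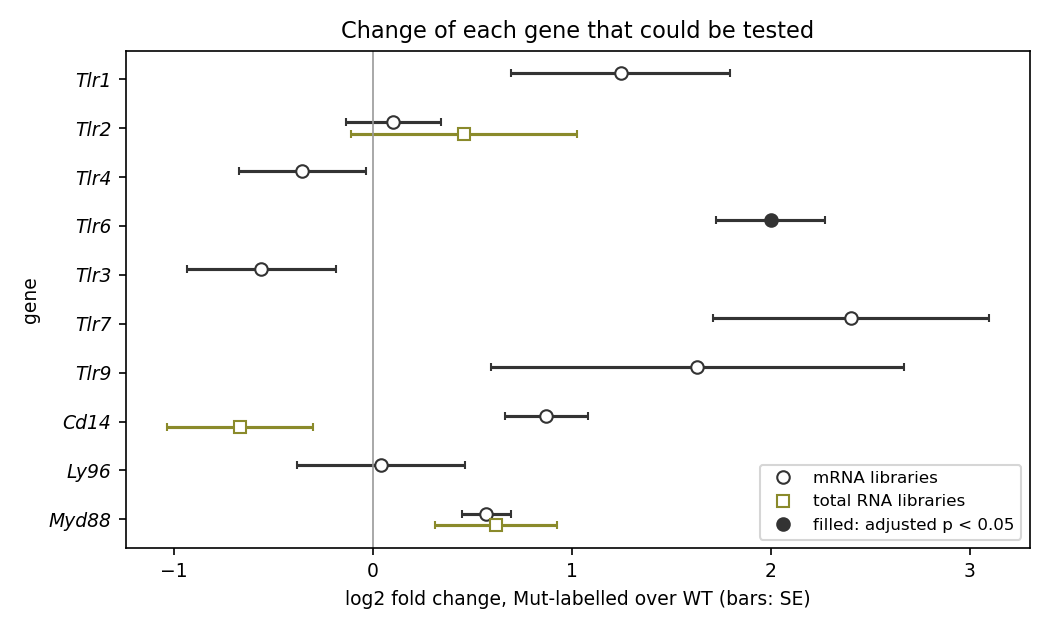
Log2 fold change of Mut-labelled over WT for each gene that passed the filter on low counts, with bars of 1 SE; circles are mRNA libraries, squares total RNA libraries, and filled symbols have an adjusted p under 0.05. Tlr6 at 2.0 is the filled point, Cd14 lies at 0.87 in mRNA and -0.67 in total RNA libraries, and Myd88 at 0.57 and 0.62.

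Compared per length of transcript, as CPM per kilobase of exon (GENCODE M21 exon lengths, while the authors' annotation may differ), the order of the members in the WT mRNA libraries was led by Myd88 with 18.9 ± 0.660 (SD, n = 2) and Cd14 with 7.96 ± 0.105. Tlr2 followed with 3.997 ± 0.546, Tlr4 with 2.28 ± 0.246 and Ly96 with 1.54 ± 0.0443. Tlr6 held rank 6 with 0.835 ± 0.0491, above Tlr3 with 0.479 ± 0.0403. Neighbours down to Tlr1 with 0.290 ± 0.0762 did not overlap between libraries, while Tlr1 overlapped Tlr7 (0.177 ± 0.115) and Tlr7 overlapped Tlr9 (0.0828 ± 0.0850).

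In the Mut-labelled libraries the first 3 ranks were again Myd88 with 28.1 ± 1.06, Cd14 with 14.6 ± 2.22 and Tlr2 with 4.30 ± 0.415 CPM per kilobase (SD, n = 2). Tlr6 stood at rank 4 with 3.34 ± 0.454, above Tlr4 with 1.78 ± 0.639 and Ly96 with 1.59 ± 0.0283, and these last overlapped each other. Tlr7 (0.940 ± 0.576) and Tlr1 (0.690 ± 0.340) overlapped each other, as did Tlr3 (0.325 ± 0.00625) and Tlr9 (0.259 ± 0.110). The levels of Tlr1 and Tlr6 carry the uncertainty of their shared stretches.

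Ratios of raw counts within a library need no scaling between libraries. The ratio of Tlr6 to Tlr2 was 0.298 and 0.226 in WT and 0.814 and 1.13 in Mut-labelled mRNA libraries, so that Tlr6 counts came close to those of Tlr2. The difference was 1.89 on the log2 scale, and with 2 samples against 2 the exact two-sided permutation test gave p = 0.333, the smallest it allows (0.556 adjusted over 5 ratios). Tlr1 to Tlr2 was 0.0726 and 0.0871 in WT against 0.225 and 0.125, and Cd14 to Tlr4 was 1.19 and 1.002 against 3.78 and 1.81. Both of these also did not overlap between the groups (exact permutation p = 0.333 each). Tlr6 to Tlr1, at 4.1 and 2.59 in WT and 3.61 and 9.07 in Mut-labelled libraries, overlapped, as did Ly96 to Tlr4 at 0.137 and 0.113 against 0.216 and 0.132 (exact permutation p = 0.667 each).

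**Figure D3:**
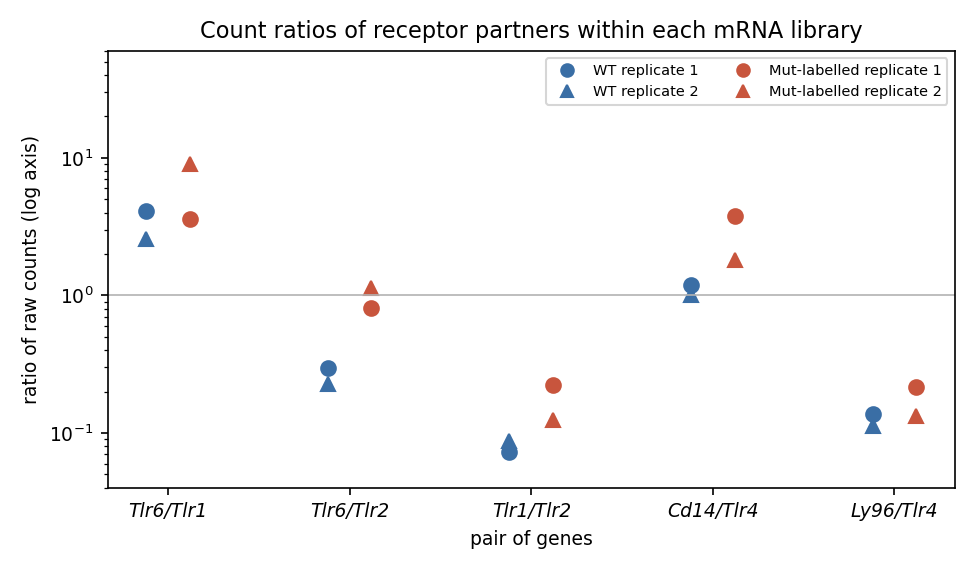
Ratio of the raw counts of 2 genes within each mRNA library, on a log axis; circles are replicate 1, triangles replicate 2, blue WT, red Mut-labelled, and the grey line marks a ratio of 1. Tlr6/Tlr2 lies at 0.226 to 0.298 in WT and 0.814 to 1.13 in Mut-labelled libraries, and Tlr6/Tlr1 overlaps between the groups.

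The total RNA libraries, by their names made from the same sorted samples, held few counts of these genes. Tlr2, Cd14 and Myd88 passed the filter on low counts there, and edgeR called 0 of these 3 (0 had an unadjusted p under 0.05), as did DESeq2. Of all 10546 genes tested there, 4.22% were called, 2.54% higher and 1.68% lower, or 268 and 177 genes, which became 13 and 360 under ERCC scaling. Myd88 had 28 and 21 counts in WT and 35 and 44 in Mut-labelled libraries, with the groups apart and a log2 fold change of 0.62 (standard error 0.31, edgeR adjusted p = 0.364), turning to -0.49 under ERCC scaling. Tlr2 had 5 and 12 counts against 7 and 18, overlapping, with a log2 fold change of 0.46 (standard error 0.57, edgeR adjusted p = 0.802).

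Cd14 went the other way in the total RNA libraries. It had 77 and 26 counts in WT and 27 and 41 in Mut-labelled libraries, which were 75.0 and 26.1 CPM against 29.1 and 34.4 CPM. WT replicate 1 stood apart from the other libraries, and both Mut-labelled values lay between the WT values. The log2 fold change was -0.67 (standard error 0.37, edgeR adjusted p = 0.439), 0.29 without WT replicate 1 and -1.22 (edgeR adjusted p = 0.00770) without WT replicate 2, and -1.89 under ERCC scaling (edgeR adjusted p = 0.0602). The difference between the kinds of library, tested as an interaction over all 8, was 1.499 on the log2 scale (standard error 0.53, edgeR adjusted p = 1.0). With the sorted sample as a block, since both libraries of a sample share its RNA, it was 1.41 (SE 0.36) and was called (edgeR adjusted p = 0.0175), 1 of 111 calls or 0.637% of 17416 genes. Without the block edgeR called 0% of genes and 0 of the 10 members, although 2 members (Tlr1 and Cd14) and 687 genes had an unadjusted p under 0.05.

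The other 7 members fell under the filter in the total RNA libraries and are given as counts, whose intervals cover counting error only. Tlr6 had 2 and 2 counts in WT and 6 and 12 in Mut-labelled libraries, a depth-scaled ratio of 4.29 (95% counting interval 1.41 to 17.4). Tlr7 had 0 counts in both WT libraries and 2 and 8 in the Mut-labelled ones, and a count of 0 allows up to 3 counts per library. For Tlr1 the order was the reverse of that in the mRNA libraries, with 8 and 1 counts in WT against 1 and 0, a ratio of 0.106 (95% counting interval 0.00242 to 0.765), and 8 of its 9 WT counts came from replicate 1. The split of reads shared by Tlr1 and Tlr6 is uncertain here too, and their sum was not fitted in these libraries. Tlr4 had 14 and 8 against 9 and 11 counts, a ratio of 0.867 (95% counting interval 0.449 to 1.67). Tlr3 (0 and 1 against 3 and 1), Tlr9 (0 and 1 against 3 and 0) and Ly96 (1 and 1 against 0 and 0) were too low for a difference to be detectable at this depth.

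Toll-like receptors are abundant on mature myeloid cells and B cells, so markers of those cells were read beside the members in the mRNA libraries. Fewer cells of a type and less RNA per cell cannot be told apart in such bulk samples. Of 11 mature neutrophil genes, 10 were tested, 2 were called higher (Retnlg and Cxcr2) and 10 had an unadjusted p below 0.05, while in the total RNA libraries 6 of 6 tested were called higher. In mRNA libraries their summed level was 41.9 and 49.8 CPM in WT against 530 and 167 CPM in Mut-labelled libraries, and the least counted was Ly6g, with 9, 0, 30 and 5 counts.

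Of 13 monocyte and macrophage genes edgeR called 0 (7 had an unadjusted p under 0.05, median log2 fold change -1.05). Of those 7, Csf1r rose (log2 fold change 1.40, edgeR adjusted p = 0.0643) and the rest fell. The sum of the 13 was 227 and 177 CPM in WT against 300 and 161 CPM in Mut-labelled libraries. Without Lyz2, the most abundant, it was 113 and 81.7 against 120 and 75.9 CPM. Of 9 dendritic cell genes, Clec9a was called higher and H2-Aa lower, with sums of 108 and 148 against 87.7 and 105 CPM, and Siglec-H, a marker of plasmacytoid cells that are rich in Tlr7 and Tlr9, had 51 and 6 against 15 and 0 counts (Siglech). Of 7 tested B cell genes, Ighm was called lower, 4 had positive changes and the median log2 fold change was 0.03. The sum was 327 and 230 against 72.6 and 48.9 CPM, and without Ighm 31.9 and 48.0 against 39.7 and 31.0 CPM. Of 6 erythroid genes 4 were called lower (Klf1, Car1, Car2 and Ermap), with sums of 1233 and 981 against 353 and 255 CPM. Of 5 endothelial and stromal genes Kdr was called higher and Bgn lower. No marker of these lists was at 0 in all 4 mRNA libraries. Of 6 megakaryocyte and platelet genes, Itga2b and Treml1 were called higher, and the sum was 441 and 391 against 1618 and 1532 CPM (without Itga2b, 104 and 73.2 against 273 and 188 CPM). The part of such cells in the levels of the 10 genes was not tested.

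Outside the 10 members, the receptors and signalling genes around them were read from 8 lists by role, with 77 of 87 genes tested in the mRNA libraries. Of these 77, 5 were called higher and 4 lower, 11.7% against the 3.64% of all genes, with a median log2 fold change of 0.12. In the total RNA libraries 3 of 56 were called higher and 2 lower, 8.93% against 4.22% of all genes there. The lists were chosen with earlier results of these data known, so these shares are a description and no test of the pathway. Among the adaptors, kinases and transcription factors 1 gene was called, Irak4. Scaled by ERCC counts, the mRNA calls of this section kept their directions, but Il18r1 alone of the 9 stayed past the threshold.

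Of the other Toll-like receptors, Tlr12, a mouse receptor for the protein profilin of protozoan parasites, was called higher. It stood at 4.24 and 4.73 CPM in WT against 12.2 and 13.5 CPM in Mut-labelled libraries, with the groups far apart. Its log2 fold change was 1.51 (standard error 0.26, edgeR adjusted p = 0.0401), and leaving out WT replicate 1 gave an adjusted p of 0.104, leaving out Mut-labelled replicate 2 one of 0.0766. Tlr13 (29 and 10 against 14 and 15 counts) and Tlr8 (10 and 12 against 11 and 4 counts) did not pass, and Tlr5 and Tlr11 were under the filter.

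Of 15 accessory and trafficking genes, Cd180 was called higher and 0 lower by edgeR, and 3 had an unadjusted p under 0.05. Besides Cd180 these were Cd36, which was lower (102 and 31 against 4 and 5 counts, edgeR adjusted p = 0.0914), and Itgam. Itgam was higher (log2 fold change 0.80, edgeR adjusted p = 0.0990). Cd180 encodes a receptor-like surface protein, known from B cells, that modulates Tlr4. It stood at 24.7 and 18.4 CPM in WT against 57.6 and 50.3 CPM in Mut-labelled libraries, a 2.50-fold change (edgeR adjusted p = 0.0309). Its total RNA log2 fold change was 1.66 (standard error 0.33, edgeR adjusted p = 0.00371). The chaperone gene Hsp90b1, needed to fold Toll-like receptors, and the protease gene Ctsb had log2 fold changes of 0.08 and -0.11 (edgeR adjusted p = 0.917 and 0.840).

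Of 5 other adaptors edgeR called 0 (1 had an unadjusted p under 0.05), and the most abundant, Pik3ap1 and Ticam1, had log2 fold changes of 0.25 and 0.13. Of 19 kinases and ubiquitin factors, Irak4, the first kinase recruited by Myd88, was called higher. It stood at 35.3 and 37.1 CPM in WT against 59.96 and 72.4 CPM in Mut-labelled libraries, a 1.83-fold change (edgeR adjusted p = 0.0436). The adjusted p rose to between 0.0623 and 0.144 on leaving out either WT library or the second Mut-labelled one, fits with fewer samples, while the log2 fold change moved from 0.87 to between 0.73 and 0.92. In the total RNA libraries Irak4 did not pass (log2 fold change 0.97, standard error 0.29, edgeR adjusted p = 0.0677). Irak1 and Tab2, the most abundant, had log2 fold changes of -0.01 and 0.24 in the mRNA libraries (edgeR adjusted p = 0.983 and 0.498).

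Of 11 tested brakes on Toll-like receptor signalling, edgeR called 2 higher and 0 lower, and 5 had an unadjusted p under 0.05. Changes were positive in 10 and negative in 1, Irak3 (log2 fold change -0.92, edgeR adjusted p = 0.0575). Dok3, an adaptor that restrains signalling in myeloid and B cells, stood at 24.2 and 21.7 CPM in WT against 51.8 and 71.8 CPM in Mut-labelled libraries, a 2.69-fold change (edgeR adjusted p = 0.0265). Il1rl1, the receptor for interleukin-33, which itself signals through Myd88 and is also a gene of mast cells, rose from 20.3 and 15.4 CPM to 138 and 189 CPM, a 9.13-fold change (edgeR adjusted p = 0.00565). Of 7 mast cell and basophil genes 2 were called higher (Cpa3 and Hdc) and 3 lower (Prss34, Mcpt8 and Prg2), with a median log2 fold change of -2.03. Their sums were 282 and 210 CPM in WT against 570 and 728 CPM, and without Cpa3 253 and 191 against 115 and 214 CPM, and their part in the level of Il1rl1 was not tested. In the total RNA libraries Il1rl1 was also called, and so was Tnfaip3, which encodes the ubiquitin-editing enzyme A20, with a log2 fold change of 1.24 (standard error 0.23, edgeR adjusted p = 0.00218). Tnfaip3 did not pass in the mRNA libraries (0.67, edgeR adjusted p = 0.284). Dok3 did not pass in the total RNA libraries (log2 fold change 0.74, standard error 0.39, edgeR adjusted p = 0.415). The phosphatase genes Inpp5d and Ptpn6, the most abundant brakes, had log2 fold changes of 0.05 and 0.10.

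**Figure D4:**
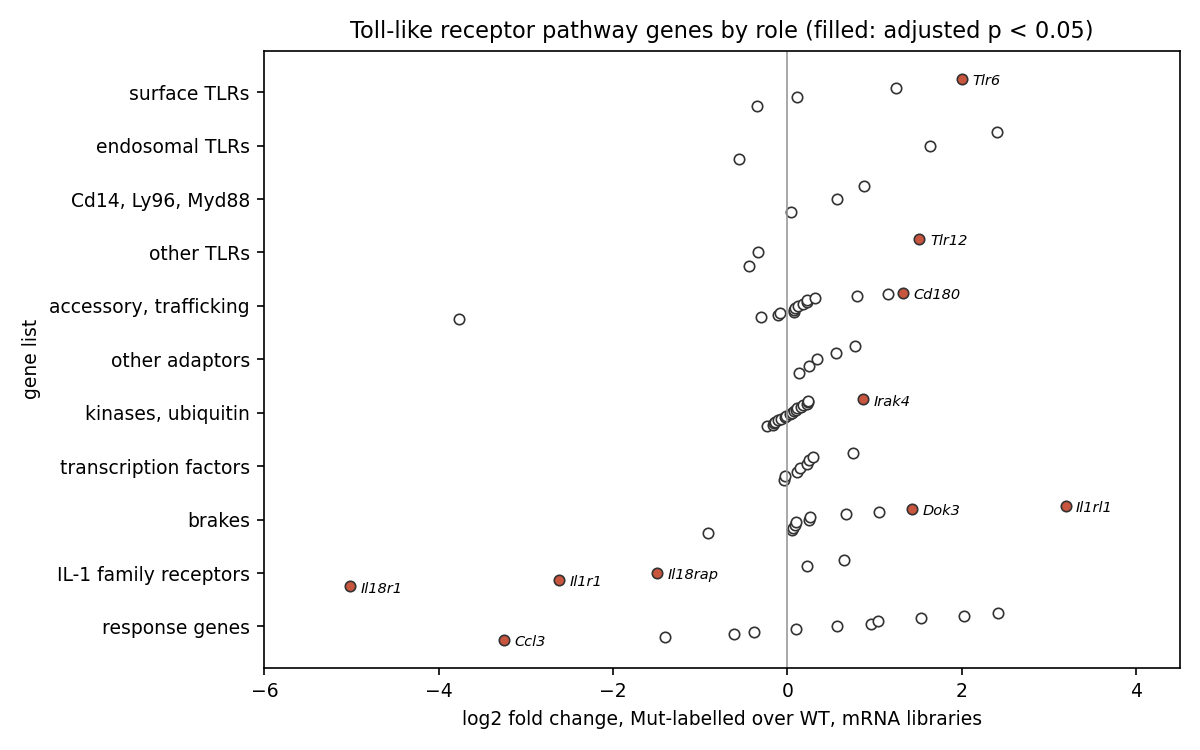
Log2 fold change of Mut-labelled over WT in the mRNA libraries for each tested gene, in rows by role; filled points have an adjusted p under 0.05 and are named. Il1rl1 lies at 3.19 and Irak4 at 0.87, while Il18r1, Il1r1 and Il18rap lie at -5.02, -2.62 and -1.49.

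Of the 4 listed genes called lower in the mRNA libraries, 3 were receptors of the IL-1 family, which share Myd88 with the Toll-like receptors. The list held 5 genes, all tested. Il1rl1, a receptor of the same family, was listed with the brakes and was called higher (9.13-fold), so the family did not change in 1 direction. Il1r1, the signalling receptor of interleukin-1, fell from 40.2 and 39.4 CPM in WT to 6.29 and 6.68 CPM in Mut-labelled libraries, 6.13-fold lower (edgeR adjusted p = 0.00565). It was also called lower in the total RNA libraries, with 27 and 32 counts against 1 and 4 (log2 fold change -3.57, edgeR adjusted p = 4.8e-04).

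Both chains of the interleukin-18 receptor were called lower. Il18r1 had 234 and 437 counts in WT and 16 and 3 in Mut-labelled mRNA libraries, a log2 fold change of -5.02 (standard error 0.78, edgeR adjusted p = 0.0327). Leaving out Mut-labelled replicate 1 moved it to -6.69 and leaving out replicate 2 to -4.25. In the total RNA libraries Il18r1 was under the filter, with 2 and 0 counts in WT against 0 and 3, so no fall was seen there. Il18rap stood at 35.6 and 47.8 CPM against 16.2 and 13.4 CPM (log2 fold change -1.49, edgeR adjusted p = 0.0297, or 0.0630 when the second Mut-labelled library was left out), and it was called in the total RNA libraries as well (-1.27, edgeR adjusted p = 0.0341). Il1rap, the accessory chain that Il1r1 and Il1rl1 share, had a log2 fold change of 0.23 (edgeR adjusted p = 0.755). T and NK cells also carry the interleukin-18 receptor. Of 5 tested T and NK cell genes, Lck (9.28-fold) and Nkg7 (2.56-fold) were called lower. Of the same 5, 2 had positive changes, and the median log2 fold change was -0.14. Cd3e (31 and 26 against 60 and 61 counts) and Cd3g (13 and 5 against 23 and 19) went up without passing. Cd3d, Cd3e and Cd3g were at 1.71 CPM or lower in every mRNA library. The sums of the list were 88.9 and 77.6 against 30.2 and 32.0 CPM, and their part in the fall of this receptor was not tested.

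Of 8 transcription factors at the end of the pathway edgeR called 0 (1, Irf7, had an unadjusted p under 0.05). The most abundant, Nfkb1 and Rela, subunits of NF-kB, had log2 fold changes of 0.29 and 0.25 (edgeR adjusted p = 0.356 and 0.411). Of 18 genes that Toll-like receptor stimulation is known to induce, 11 were tested and 1 was called, the chemokine gene Ccl3, which was lower. It stood at 5.56 and 11.1 CPM in WT against 1.14 and 0.602 CPM in Mut-labelled libraries (log2 fold change -3.25, edgeR adjusted p = 0.0357, or 0.0568 when the second Mut-labelled library was left out), and the change was -2.65 without WT replicate 2. The adhesion gene Icam1 and the chemokine gene Ccl4, the most abundant of the list, had log2 fold changes of 0.10 and 0.57 and did not pass. Il12b had 0 counts in all 4 mRNA libraries.

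The pattern of Tlr6 over the 8 libraries, with each kind centred on its own mean, was most like that of 5 genes among 10317 compared, ranked by root mean square distance of log2 values. They were Hdc, the histidine decarboxylase that makes histamine and a listed mast cell and basophil marker (distance 0.105), Runx1 itself (0.129), Gm45837 (0.136), Asph, a hydroxylase gene (0.157), and Itga2b, the platelet integrin subunit and a listed megakaryocyte marker (0.175). Their log2 fold changes in the mRNA libraries lay between 1.77 and 2.11. The genes compared passed the filter in both kinds, while Tlr6 itself was under it in the total RNA libraries, with 2 and 2 against 6 and 12 counts. The distance takes in the difference between the groups itself. The points of this comparison are 4 sorted samples measured in pairs of libraries, and the likeness is a description without a test.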

How the data were processed

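The authors deposited raw counts per gene in 1 table, a column for each library. The submitters' processing notes name TopHat, featureCounts and edgeR and the build mm9, without versions or roles, and other settings were not found in these sources. The table held 38086 rows, of which 37991 were genes, 92 ERCC transcripts and 3 rRNA species. ERCC and rRNA rows were left out of library sizes and tests. Gene symbols were looked up in GENCODE M21 names, with 32919 identifiers matched. The genotypes were compared separately in mRNA and in total RNA libraries with edgeR 4.0.16 in R 4.3.3 (TMM scaling, its default filter on low counts, quasi-likelihood F test without a block, Benjamini-Hochberg adjustment over all genes). Standard errors given with edgeR results were not fitted but back-calculated, as the absolute log2 fold change over the square root of F. The interaction used all 8 libraries, without and with the sorted sample as a block, the latter taking libraries of the same name as 1 sample. DESeq2 1.42.0 was an alternative, as were RLE and ERCC scaling, no filter, a replicate block and leaving out each library. The procedure was tested on simulated data. Counts of libraries of 1 group differed by more than sampling noise (chi-square over degrees of freedom 2.60 or higher), so none was treated as a repeat deposit. The depth of the total RNA libraries limits precision for members with few counts. The 10 members and all lists were chosen with earlier results of these data known. Besides the members, the genes named were those of the pathway lists that were called in either kind of library, the 2 most abundant of each list, markers called in the mRNA libraries, and the 5 genes most like the member with the smallest p. Genes outside this rule were chosen after their values were seen. These were Tlr8, Tlr5, Tlr11, Siglech, Ly6g, Irf7, Il1rap, Il12b, Kit, Ly6a, Flt3, Cd3d, Cd3e, Cd3g, Csf1r, Lyz2, Irak3, Cd36 and Itgam.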

Additional observations from a re-analysis of the deposited data

How the results depend on the processing

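Over the members, 118 values of log2 fold change were recomputed under other settings (1 of them, the sum of Tlr1 and Tlr6, chosen after seeing the data), and 101 kept their direction and their side of the threshold. In the mRNA libraries the 624 calls became 170 under ERCC scaling (16 higher and 154 lower; 80 shared with the 624) and 1500 with DESeq2, and ranged from 602 to 815 with 1 library left out. Called members there numbered 0 under ERCC scaling, 4 with DESeq2 and 1 to 2 with 1 library left out. Log2 fold changes that reversed were those of Tlr2 (-0.36) and Ly96 (-0.32) under ERCC scaling and of Tlr2 without WT replicate 1 (-0.032, in a range up to 0.26 with 1 library left out). In the total RNA libraries the 445 calls became 373 under ERCC scaling (13 higher and 360 lower, at a median of all genes of -1.10), 170 with DESeq2 and 724 without the filter, and ranged from 386 to 598 with 1 library left out, with 0 to 1 member called. Reversed there were Tlr2 (-0.71) and Myd88 (-0.49) under ERCC scaling, Tlr2 (-0.05) and Cd14 (0.29) without WT replicate 1, and Tlr2 without Mut-labelled replicate 2 (-0.15). With 1 library left out, Tlr2 ranged there from -0.15 to 1.24 and Cd14 from -1.22 to 0.29. The Cd14 to Tlr4 ratio differed by -0.34 on the log2 scale in total RNA libraries, reversed from 1.26, while ratios with a count of 0 (Tlr6/Tlr1, Tlr1/Tlr2 and Ly96/Tlr4) gave no value there. Interaction calls ranged from 0 to 1 with 1 sorted sample left out. Where 1 sample of a group was left, it was assumed to vary like the other group. The causes were not tested, apart from the smaller number of genes or samples that an alternative leaves.

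Replicate numbers 1 and 2 occur in both genotypes, but no label says that they pair WT with Mut-labelled samples. Same-numbered deviations correlated at 0.45 in mRNA and 0.23 in total RNA libraries over genes. With the replicate number as a block, edgeR called 2870 of all 17128 genes in mRNA libraries, against 624 without it. Of the 10 members it called 4 there (Tlr6, Tlr7, Cd14 and Myd88). In total RNA libraries it called 870 of 10546 genes and 0 of the 3 members tested. With the sorted sample as a block in the interaction, the 111 calls held 1 member, Cd14.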

Other observations

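In the mRNA libraries several genes that stimulated myeloid cells make were counted at low levels. Il6 had 14 and 12 counts in WT and 36 and 35 in Mut-labelled libraries, Acod1, which makes itaconate, had 13 and 7 against 53 and 48, and Cxcl2, a neutrophil-attracting chemokine gene, had 31 and 21 against 86 and 114. Their log2 fold changes were 1.53, 2.41 and 2.02, and none of them passed (edgeR adjusted p = 0.380, 0.149 and 0.0914). Tnf, with 87 and 71 against 54 and 43 counts, and Ptgs2, with 73 and 95 against 13 and 47, had changes of -0.61 and -1.41 (edgeR adjusted p = 0.636 and 0.419). These 5 genes were chosen after their values were seen.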
